A study of Mus musculus with 19 samples.

Results

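The cytochrome P450 genes were taken as all non-control probes of the array whose gene name is Cyp followed by a digit, a letter and a digit, or by 2 digits and a letter, with Cyp51 included. This gave 72 genes with 106 probes, of 27745 gene names and 41174 probes on the array. Of these genes, 42 had 1 probe and 30 had 2 or more, and a gene is described by its probe with the highest mean signal. All RNA came from leukocytes of whole blood of male B6 or DBA/2 mice, 5 to 14 weeks old, that had received CAWS, the water-soluble mannoprotein and β-glucan fraction of Candida albicans, by intraperitoneal injection on 5 consecutive days. The 10 groups are B6 and DBA/2 mice at 0 w, right after the last injection, at 2 w and 4 w, and at 8 w and 9 w, with 2 samples each except for B6 at 2 w and at 9 w, which have 1. Every group had received CAWS, so that no level here is that of an untreated mouse. From 2 w on, the samples are from mice that had survived to that week, and the study's methods describe RNA of single mice.

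P450 enzymes are membrane-bound haem proteins that insert an oxygen atom from O2 into their substrate, with electrons that cytochrome P450 reductase (Por) passes on from NADPH, or ferredoxin in mitochondria. Families 1 to 3 oxidize drugs and other foreign compounds and are made mainly in hepatocytes. Family 4 hydroxylates fatty acids and eicosanoids, including leukotriene B4 in neutrophils, and other families make or break down bile acids, steroid hormones and vitamins A and D.

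Levels are log2 signals relative to the 75th percentile of the array, so that 0 is a bright probe of that array and values near -7 are at the floor of the scanner. The level of one probe cannot be set against that of another. A probe was taken as measured where the signal was well above background by the call of the scanner software. In leukocyte RNA, fewer cells of a type and less RNA per cell cannot be told apart. The leukocyte markers Ptprc, Coro1a and Laptm5 were well above background in every sample, with summed linear levels of 22.9 to 33.9. The groups differed in 14 markers of hepatocytes, among them albumin (Alb). Their summed linear level was 47.7 and 49.0 at B6 0 w and 25.5 and 26.8 at B6 8 w, against 1.15 to 2.56 in the other 14 samples. All 14 were well above background in both B6 0 w samples, and 13 of 14 in both B6 8 w samples. The level of Alb was 3.90 and 3.87 at B6 0 w, 2.95 and 2.79 at B6 8 w, -2.37 at B6 2 w and -6.74 to -6.59 at B6 4 w and 9 w. Its DBA/2 levels lay between -7.70 and -3.06. The 5 markers of kidney tubules had a summed level of at most 0.167 in all samples. The part that the liver transcripts play in the results below was not tested.

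Most P450 genes were seen in few samples. Of 72 genes, 17 had no probe well above background in any sample, 2 were seen in 1 sample only, and 53 genes with 65 probes were seen in at least 2 samples and could be tested. A probe that was bright in B6 0 w or 8 w alone passed this filter only through those samples. The number of P450 genes seen per sample was 46 and 44 at B6 0 w and 48 and 35 at B6 8 w. It was 26 at B6 2 w, 23 and 25 at B6 4 w and 22 at B6 9 w. Among DBA/2 samples it ranged from 18, in 4 w replicate 2, to 33, in 4 w replicate 1, so that the lowest B6 0 w and 8 w sample exceeded all other samples. Over all probes of the array, 34.3% to 50.9% were well above background per sample. This share was 45.8% and 43.3% at B6 0 w and 50.9% and 38.2% at B6 8 w. Counted by probe, B6 8 w replicate 2 did not exceed DBA/2 4 w replicate 1, as both had 38 P450 probes well above background.

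**Figure D1:**
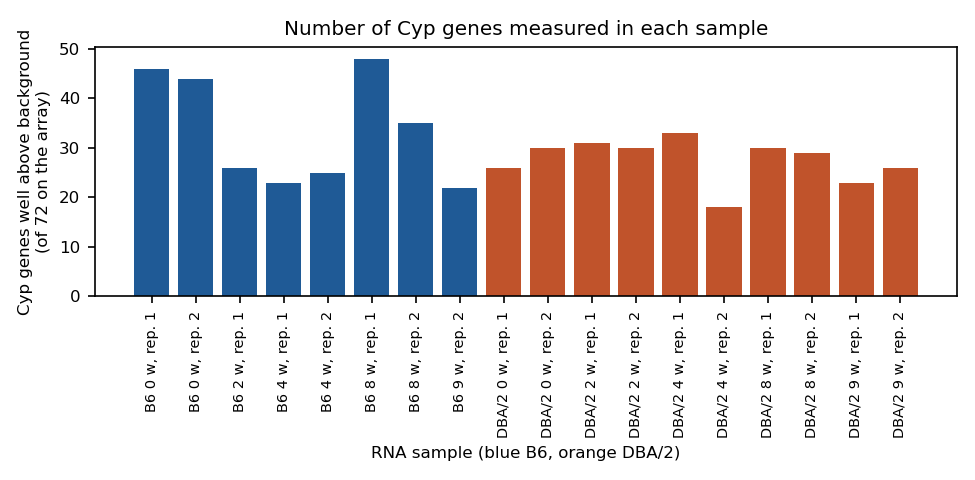
Number of P450 genes, of 72 on the array, with at least 1 probe well above background in each of the 18 RNA samples (B6 blue, DBA/2 orange). The 4 samples of B6 0 w and 8 w have 35 to 48 genes, and the other 14 samples have 18 to 33.

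Seen in all 4 samples of B6 0 w and 8 w and in none of the other 14 were 12 probes of 11 genes. These were Cyp2a4, Cyp2a5, Cyp2c40, Cyp2d10, Cyp2e1, Cyp2f2, Cyp2j5, Cyp3a13, Cyp3a16, Cyp3a25 and Cyp3a44, all of families 2 and 3, and for 2 of them, Cyp2a4 and Cyp2d10, another probe was seen in further samples. The 12 probes made up 11.3% of the P450 probes, and 0.248% of all probes of the array (102 of 41174) had that pattern. A further 8 probes were seen in 1 to 3 of these 4 samples and in no other. At the other end, 11 genes, including Cyp4b1, Cyp4f18 and Cyp17a1, were seen in all 18 samples. Among the genes not seen in any sample by any probe were Cyp1a1 and Cyp2u1, Cyp51 of cholesterol synthesis, Cyp8b1 of bile acid synthesis, and the vitamin D hydroxylases Cyp2r1 and Cyp24a1. That is a limit of the brightness of these probes, not a measured absence.

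**Figure D2:**
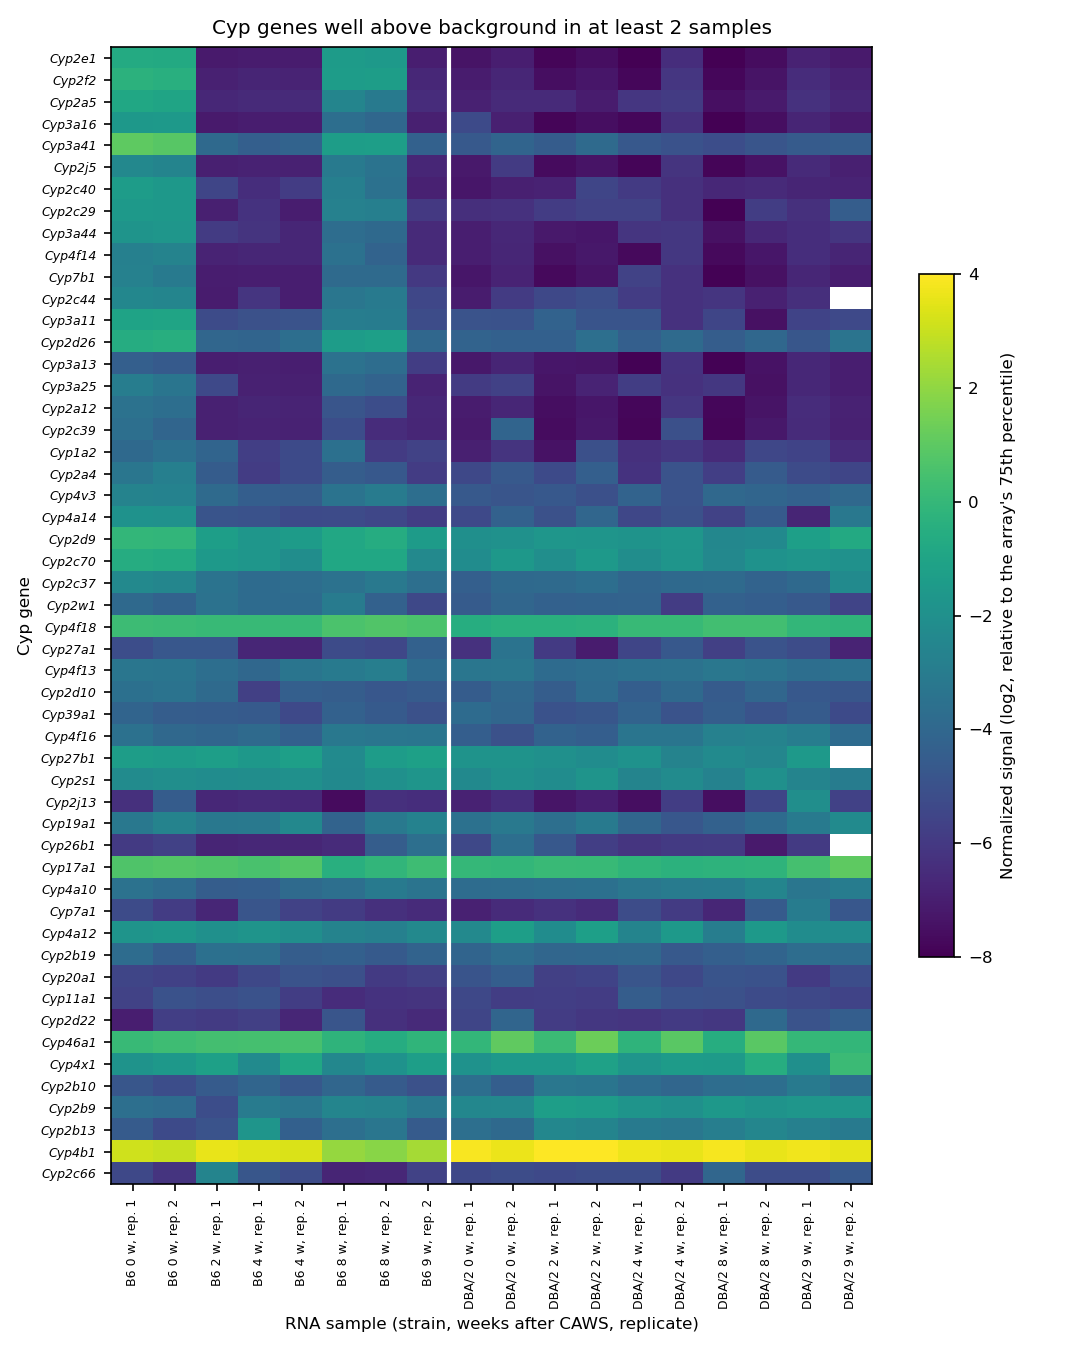
Levels (log2, relative to the 75th percentile of the array) of the P450 genes whose main probe was well above background in at least 2 samples, 1 row per gene and 1 column per RNA sample, ordered by the difference between the B6 0 w and 8 w samples and all others. The upper rows are bright only in the B6 0 w and 8 w columns, and white cells are spots that the scanner software marked as outliers.

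Cyp2e1, which oxidizes ethanol and small solvents, showed the pattern most plainly. Its level was -0.69 and -0.71 at B6 0 w and -1.40 and -1.55 at B6 8 w. At B6 2 w, 4 w and 9 w it was between -7.15 and -6.99, and in the 10 DBA/2 samples between -8.08 and -6.42, in none of which it was well above background. The probe lies at chr7:140625006-140625065 on the plus strand of mm8. If no sample of a group had a probe well above background, the change of that probe is a bound, taken against the lowest signal well above background. Against 0 w, Cyp2e1 was at least 17.4-fold lower at B6 2 w, at least 16.8-fold lower at 4 w and at least 15.5-fold lower at 9 w (adjusted p from limma = 4.09e-05, 1.48e-05 and 7.64e-05).

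The 250 bases before the start of 4 genes with their highest levels at B6 0 w, and of Cyp4f18, which was seen in all samples, are shown to compare their start regions (RefSeq, GRCm38.p6, read in the direction of the gene). Capitals mark matches to TATAAA, the letters of a TATA box, to GTTAAT, a half-site of the liver factor HNF1, and to CAAAGTCCA, a site of the liver factor HNF4.
Cyp2e1, chr7:140763569-140763818, plus strand: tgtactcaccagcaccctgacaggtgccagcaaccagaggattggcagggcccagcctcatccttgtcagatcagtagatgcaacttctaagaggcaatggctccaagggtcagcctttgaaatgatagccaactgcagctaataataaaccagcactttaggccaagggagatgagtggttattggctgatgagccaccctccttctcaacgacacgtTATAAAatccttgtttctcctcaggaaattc
Cyp3a11, chr5:145879855-145880104, minus strand: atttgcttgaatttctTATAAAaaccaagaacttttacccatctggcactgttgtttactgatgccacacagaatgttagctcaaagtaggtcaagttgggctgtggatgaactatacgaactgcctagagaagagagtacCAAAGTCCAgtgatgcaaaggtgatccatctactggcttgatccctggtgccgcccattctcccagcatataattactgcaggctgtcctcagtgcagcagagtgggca
Cyp3a16, chr5:145469724-145469973, minus strand: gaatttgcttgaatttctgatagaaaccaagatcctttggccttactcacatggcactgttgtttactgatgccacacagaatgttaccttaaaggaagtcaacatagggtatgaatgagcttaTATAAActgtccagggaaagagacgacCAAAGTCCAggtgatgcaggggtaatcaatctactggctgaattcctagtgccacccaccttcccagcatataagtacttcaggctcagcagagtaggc
Cyp2a5, chr7:26835089-26835338, plus strand: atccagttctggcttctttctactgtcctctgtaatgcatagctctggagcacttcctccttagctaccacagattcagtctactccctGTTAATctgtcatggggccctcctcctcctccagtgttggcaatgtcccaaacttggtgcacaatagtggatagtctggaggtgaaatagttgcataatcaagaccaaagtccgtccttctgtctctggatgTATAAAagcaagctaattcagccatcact
Cyp4f18, chr8:72009627-72009876, minus strand: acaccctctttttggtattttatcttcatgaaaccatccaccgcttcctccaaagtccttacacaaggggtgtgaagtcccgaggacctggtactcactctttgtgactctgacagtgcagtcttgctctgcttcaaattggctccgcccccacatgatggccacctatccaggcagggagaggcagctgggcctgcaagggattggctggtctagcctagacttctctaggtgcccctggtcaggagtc
TATAAA stands 31 bases before the start in Cyp2e1 and 29 bases before it in Cyp2a5, counted from its first base. In Cyp3a11 and Cyp3a16 it stands farther away, at 234 and 126 bases, with CAAAGTCCA at 109 and 99 bases. Cyp4f18 holds none of these letters. Both strands were searched, matches of different motifs overlapped in 0 of the P450 promoters, and a promoter was found for 55 of the 72 genes. TATAAA was in 22 of these 55 (40%) and in 13% of the 27025 promoters of the table. It was in 7 of the 11 genes with a probe seen only in B6 0 w and 8 w and in 2 of the 8 with a promoter that were seen in all samples. CAAAGTCCA was in 7 of 55 (12.7%) and in 0.381% of all, and GTTAAT in 4 of 55 (7.27%) and in 6.52% of all. Of the same 11 and 8 genes, CAAAGTCCA was in 2 and 1, and GTTAAT in 3 and 0. A match is a run of letters only.

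Some other members of families 1 to 3 are described in the same order of weeks. Cyp2f2, which oxidizes naphthalene, had levels of -0.30 and -0.43 at B6 0 w and -1.35 and -1.34 at 8 w. In the other 14 samples Cyp2f2 lay between -7.80 and -6.12 and was not well above background. It was at least 21.1-fold lower at B6 4 w than at 0 w (limma, adjusted p = 1.54e-05). Cyp2a5, the coumarin hydroxylase, had levels of -0.87 and -1.01 at B6 0 w and -2.54 and -3.04 at 8 w, and was at least 14.1-fold lower at B6 4 w (limma, adjusted p = 7.82e-07). Cyp2c29, an arachidonic acid epoxygenase of liver, had levels of -1.55 and -1.59 at B6 0 w and -2.75 and -2.80 at 8 w, and was at least 9.16-fold lower at B6 4 w (limma, adjusted p = 0.00168).

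Cyp3a11 and Cyp3a41, of the Cyp3a subfamily of drug oxidases, were also highest at B6 0 w. Cyp3a11 had levels of -1.04 and -1.0 at B6 0 w and -2.92 and -2.97 at 8 w, and of -5.24 at 2 w, -5.03 and -4.93 at 4 w and -5.21 at 9 w, where it was not well above background. It was at least 13.4-fold lower at B6 4 w (limma, adjusted p = 0.00211). Cyp3a11 in DBA/2 mice lay between -7.46 and -4.21 and was well above background in 5 of 10 samples. Cyp3a41 was well above background in 16 of 18 samples, so that its change was measured on both sides. Its level was 1.03 and 0.89 at B6 0 w, -3.88 at 2 w, -4.36 and -4.20 at 4 w, -1.33 and -1.25 at 8 w and -4.26 at 9 w. Cyp3a41 fell by 5.24 ± 0.24 (SE) on the log2 scale from B6 0 w to 4 w (limma, adjusted p = 1.21e-06). Its DBA/2 levels were between -5.16 and -3.83. The Cyp2a, Cyp2c, Cyp2d and Cyp3a genes have near-identical copies, and whether a probe reads 1 or several of them was not tested.

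**Figure D3:**
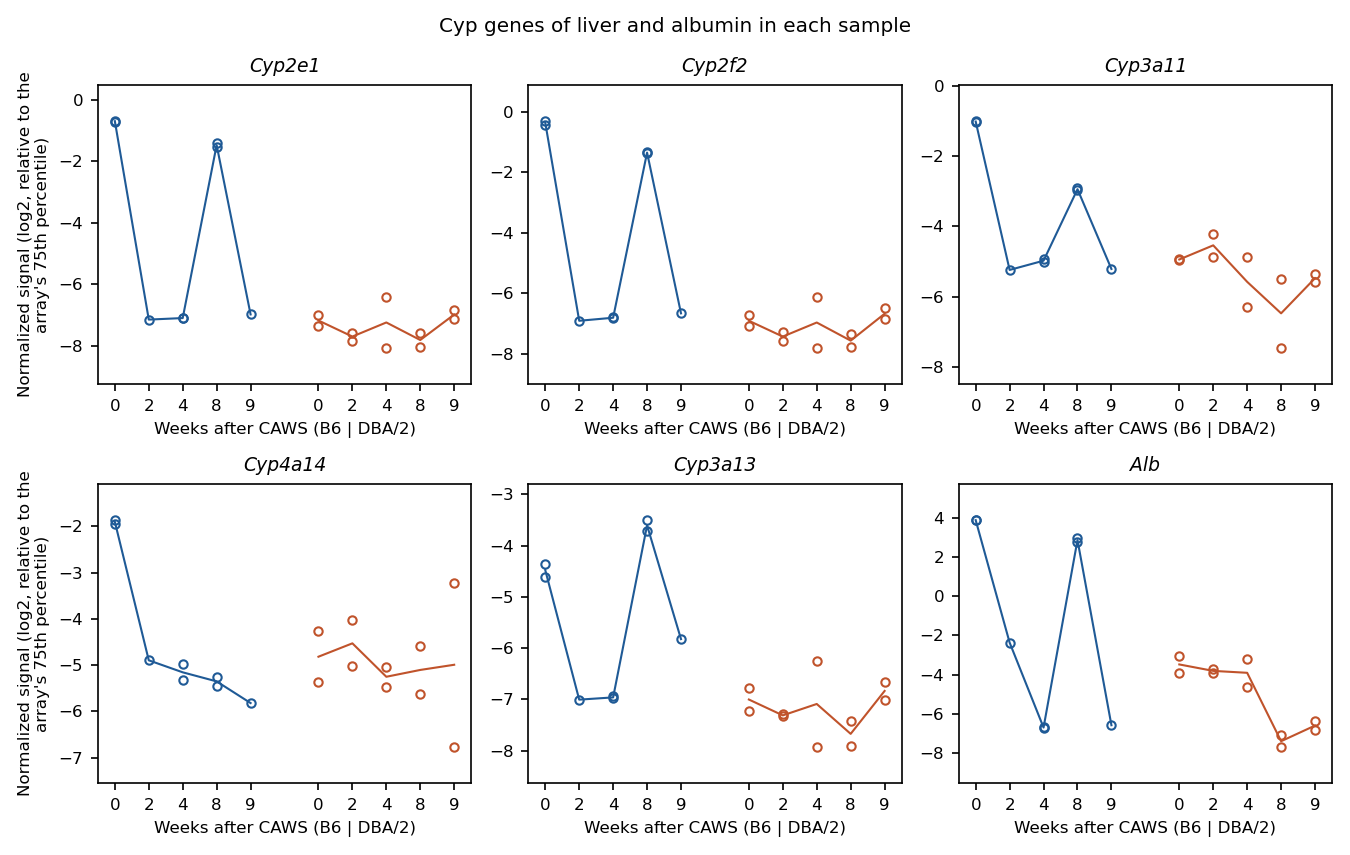
Levels (log2, relative to the 75th percentile of the array) of Cyp2e1, Cyp2f2, Cyp3a11, Cyp4a14, Cyp3a13 and albumin in each sample, by week after CAWS, B6 left and DBA/2 right. Cyp2e1 and Cyp2f2 follow albumin with high B6 0 w and 8 w samples, while Cyp4a14 is high at B6 0 w only.

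Of the other members of families 1 to 3, Cyp2d9, Cyp1a2, Cyp2s1, Cyp2c70 and Cyp2c37 differed less between weeks by their main probes. Further members differed more. Outside the rule for named genes, Cyp3a44 and Cyp2c40 were at least 8.03-fold and 9.71-fold lower at B6 4 w than at 0 w (limma, adjusted p = 3.8e-06 and 9.44e-05). Cyp2d9, a male-biased testosterone hydroxylase of mouse liver, was well above background in all 18 samples. Its level was -0.06 and -0.12 at B6 0 w, -1.69 and -1.43 at 4 w and -0.80 and -0.57 at 8 w, and it fell by 1.47 ± 0.17 from B6 0 w to 4 w (limma, adjusted p = 0.000522). The second probe of Cyp2d9 fell more and was at least 17.3-fold lower at B6 4 w (limma, adjusted p = 6.71e-06). Cyp1a2, which oxidizes caffeine, was well above background in 4 samples. Its level was -3.90 and -3.55 at B6 0 w and -4.14 at 2 w, and at B6 8 w it was -3.56 in replicate 1 and -5.93 in replicate 2. No change of Cyp1a2 within B6 passed the test. Cyp2s1, a member of epithelia and of immune cells, was well above background in all samples with levels from -2.96 to -1.72, and no comparison of it passed the test. Cyp2c70 and Cyp2c37 were also well above background in all samples. Cyp2c70 changed by -1.30 ± 0.26 from B6 0 w to 4 w (limma, adjusted p = 0.0102). Its mean was -0.61 at B6 0 w, -1.91 at B6 4 w and -1.88 at DBA/2 0 w. Cyp2c37 changed by -1.35 ± 0.43 at B6 4 w, which did not pass (limma, adjusted p = 0.0639). The second probe of Cyp2c37 was at least 2.09-fold lower there (limma, adjusted p = 0.0388).

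Over all 65 tested P450 probes, 1 was higher and 28 were lower at B6 2 w than at 0 w by limma (Benjamini-Hochberg adjusted p under 0.05), beside 5.28% higher and 7.74% lower of all tested probes. At B6 4 w 1 was higher and 31 were lower, beside 6.02% and 9.66% of all probes. At B6 9 w 1 was higher and 26 were lower, beside 5.48% and 3.86%, and 4 and 24 in the deposited values without scaling. A single called probe each at 2 w (Cyp2b10) and 4 w (Cyp39a1) was not well above background in either group. Median changes were -1.12, -1.35 and -1.04 for the P450 probes and 0.08, -0.03 and 0.00 for all tested probes. Among the 65 probes, 12 were seen in all 4 samples of B6 0 w and 8 w and in no other. They passed the filter only through the weeks where they are high, so that their fall from 0 w was fixed in advance. The counts and medians are thus a description and not a test against all probes. Of the 42 tested probes of families 1 to 3, 25 were lower at 2 w, 26 at 4 w and 23 at 9 w. Of the 10 tested probes of family 4, 2, 3 and 2 were lower. The B6 2 w and 9 w groups have 1 sample each and were tested with the spread of the other groups. With a different background correction (normexp) 2 P450 probes passed at 4 w, both lower, and 0.371% of all probes passed. This setting adds 50 to every signal, beside median signals of 5.89 to 13.9 per array, which makes the log2 changes of dim probes smaller.

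The rise at B6 2 w was that of Cyp2c66, which the rule for named genes does not include and which was singled out after its values were seen. Its level was -2.56 in the 1 sample of B6 2 w and between -6.75 and -4.06 in the others.

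At B6 8 w the liver members mostly stood between their 0 w level and that of the other weeks. The question whether they did so alike was put to 15 genes, a choice made after the values were seen. Each was seen in all 4 samples of B6 0 w and 8 w. Its mean level there lay at least 2 log2 units above its mean in the other 14 samples. Not all were dim elsewhere, as Cyp2d26 was seen in 17 samples, Cyp3a41 in 16 and Cyp3a11 in 9. The median change from 0 w to 8 w of these 15 was -0.98, with a range from -2.25 to 0.87, and 14 of 15 were below 0. The 14 hepatocyte markers had a median of -0.80, from -1.72 in Fabp1 to 1.03 in Fga, and 12 of 14 were below 0. Of the 15 P450 genes 7 passed the test and of the 14 markers 2 did, all of them lower, beside 10.2% lower of all probes. Because the 15 genes were chosen by these values, their count cannot be set against that of the markers.

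The largest fall that passed the test was in Cyp4a14, a target of the lipid sensor PPARα. Its level was -1.86 and -1.94 at B6 0 w but -5.26 and -5.44 at 8 w, where only replicate 1 was well above background. It fell by 3.45 ± 0.93 (limma, adjusted p = 0.0274), a call that ended with any of the 4 samples left out and with the slide as a block. B6 8 w replicate 1 was alone on its slide, so that this block leaves only replicate 2 for B6 8 w. Cyp3a41 fell by 2.25 ± 0.24 (limma, adjusted p = 0.000173), which held in all 30 alternatives. Cyp3a16 fell by 2.24 ± 0.53 and Cyp3a11 by 1.92 ± 0.59 (limma, adjusted p = 0.0153 and 0.0445), and both calls ended with any of these 4 samples left out. Cyp2a5 fell by 1.85 ± 0.24 (limma, adjusted p = 0.000572). The change of Cyp2e1 was -0.78 ± 0.42 and that of Cyp2f2 -0.98 ± 0.43, which did not pass (limma, adjusted p = 0.237 and 0.143). Cyp3a13 had higher values at 8 w (-3.50 and -3.71) than at 0 w (-4.35 and -4.61), and its change of 0.87 ± 0.44 did not pass (limma, adjusted p = 0.2).

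**Figure D4:**
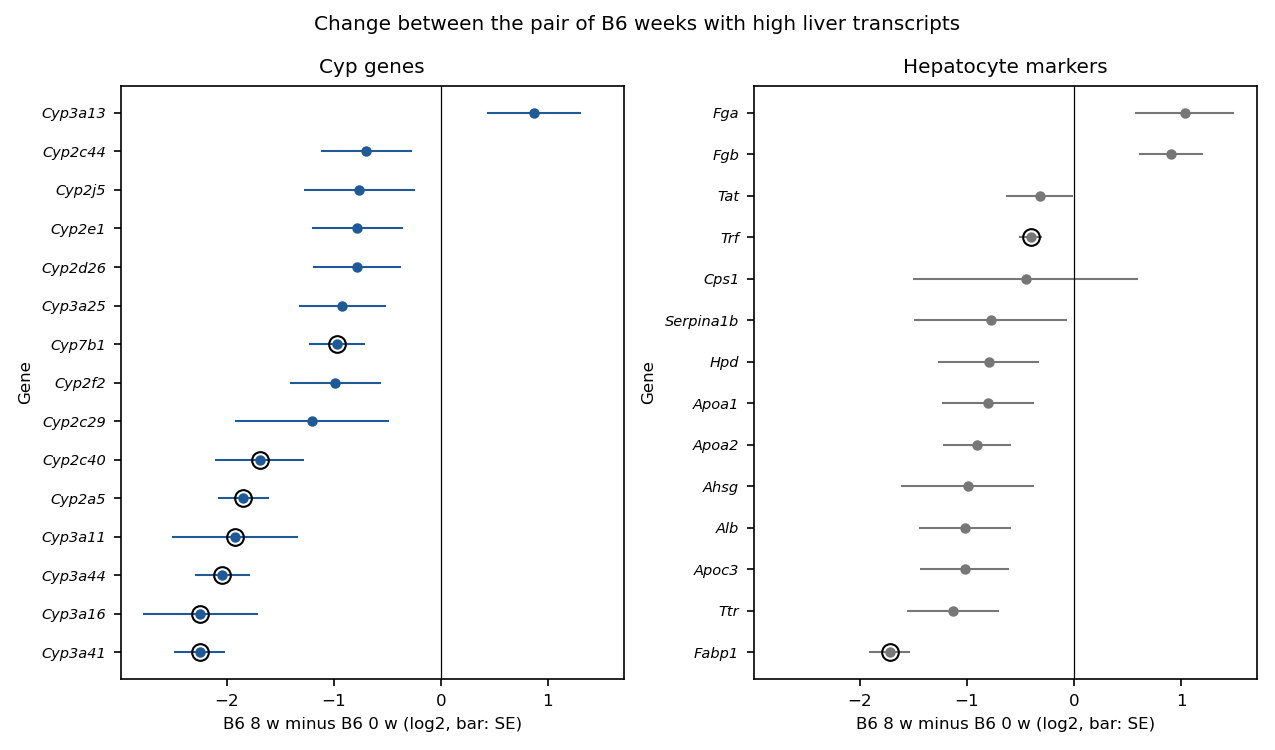
Change from B6 0 w to 8 w (log2, bars are standard errors) of 15 P450 genes, left, and of 14 hepatocyte markers, right. Each of the 15 genes had a mean in these samples at least 2 log2 units above its mean in the other 14. Circles mark changes that passed the test, 7 of 15 and 2 of 14, beside 10.2% lower of all probes. Medians are -0.98 and -0.80.

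Counted over all 65 P450 probes, 3 were higher and 18 were lower at B6 8 w than at 0 w, beside 11% higher and 10.2% lower of all probes, and the median change was -0.78 against -0.04. In the deposited values without scaling, where the median of all probes was 0.98 in this comparison, 15 were higher and 5 lower. With the slide as a block 9 passed, and with each replicate left out in turn 9 to 25.

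Of the 11 P450 genes seen in all samples, 5 belong to family 4. Cyp4b1, which oxidizes fatty acids and 4-ipomeanol in lung, was well above background in all samples. Its level was 3.15 and 2.99 at B6 0 w, 3.59 at 2 w, 3.41 and 3.32 at 4 w, 2.09 and 1.88 at 8 w and 2.36 at 9 w. Cyp4b1 fell by 1.08 ± 0.14 from B6 0 w to 8 w (limma, adjusted p = 0.00048) and by 0.71 ± 0.17 to 9 w, where the 1 sample was given the spread of the other groups (limma, adjusted p = 0.0295). The 8 w call held in 29 of 30 alternatives and was lost in the unscaled values. In DBA/2 mice the level lay between 3.54 and 4.16 in all 10 samples, above every B6 sample but 2 w, and changed by -0.03 ± 0.14 at 8 w (limma, adjusted p = 0.896).

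Cyp4f18, which inactivates leukotriene B4 in neutrophils, rose in both strains. Its level was 0.23 and 0.17 at B6 0 w, between 0.07 and 0.09 at 2 w and 4 w, 0.61 and 0.73 at 8 w and 0.61 at 9 w. Its DBA/2 levels were -0.52 and -0.40 at 0 w, -0.38 and -0.29 at 2 w, 0.08 and 0.09 at 4 w, 0.36 and 0.39 at 8 w and -0.07 and -0.15 at 9 w. The groups at 0 w and 8 w did not overlap in either strain. Cyp4f18 rose by 0.47 ± 0.08 at B6 8 w (limma, adjusted p = 0.0024), a call that was lost with the slide as a block and with normexp, and by 0.83 ± 0.08 at DBA/2 8 w (limma, adjusted p = 6.95e-05), a call that held in all 30 alternatives. At DBA/2 4 w it rose by 0.54 ± 0.08 (limma, adjusted p = 0.00179). The 9 neutrophil markers moved with it. Their summed linear level was 55.6 and 55.7 at B6 0 w and 426 and 428 at 8 w, and 105 and 106 at DBA/2 0 w and 696 and 776 at 8 w, where 9 of 9 were higher in each strain, beside 11% of all probes in B6 and 10% in DBA/2 mice. Neutrophil markers were also higher at B6 4 w (8 of 9, beside 6.02% of all probes), where the change of Cyp4f18 was -0.12 ± 0.08 (limma, adjusted p = 0.377). The part that neutrophil numbers play was not tested.

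Cyp4f16, a close relative that is found in many tissues, was dimmer and rose in DBA/2 mice. Its level was -4.43 and -5.03 at DBA/2 0 w, -4.21 and -4.43 at 2 w, -3.35 and -3.32 at 4 w, -2.74 and -2.64 at 8 w and -2.93 and -3.81 at 9 w. It rose by 2.04 ± 0.30 at 8 w (limma, adjusted p = 0.000992), by 1.40 ± 0.30 at 4 w and by 1.36 ± 0.30 at 9 w (limma, adjusted p = 0.0127 and 0.00826). In B6 mice its levels were -3.53 and -3.94 at 0 w and -3.17 and -3.30 at 8 w, a change of 0.50 ± 0.30 that did not pass (limma, adjusted p = 0.285). Cyp4f13, of the same cluster, was seen in all samples between -3.99 and -2.85, and no comparison of it passed the test.

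Cyp4a10, a fatty acid hydroxylase and PPARα target like Cyp4a14, had levels of -3.77 and -3.69 at DBA/2 0 w and -2.96 and -2.55 at 8 w, and rose by 0.98 ± 0.24 (limma, adjusted p = 0.0162). That call was lost without either DBA/2 0 w sample and without 8 w replicate 2. Cyp4v3, a fatty acid hydroxylase of many tissues, fell at B6 4 w, from -2.65 and -2.68 at 0 w to -4.44 and -4.45, a change of -1.78 ± 0.24 (limma, adjusted p = 0.00131). Cyp4a12 and Cyp4x1 were seen in all samples, with levels from -2.93 to -1.24 and from -2.46 to 0.17, and no comparison of either passed the test.

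**Figure D5:**
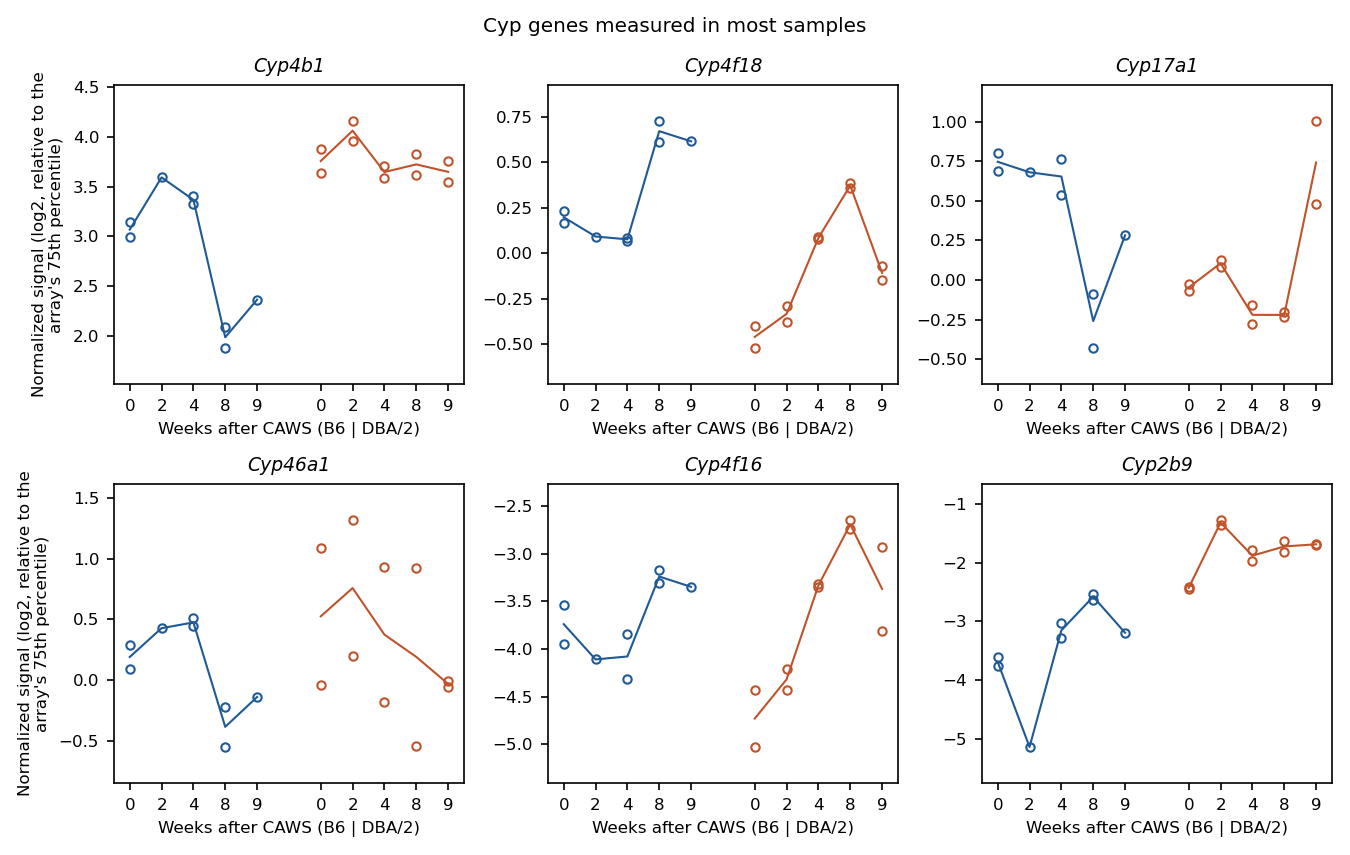
Levels (log2, relative to the 75th percentile of the array) of Cyp4b1, Cyp4f18, Cyp17a1, Cyp46a1, Cyp4f16 and Cyp2b9 in each sample, by week after CAWS, B6 left and DBA/2 right. Cyp4f18 is highest at 8 w in DBA/2 mice, Cyp4b1 is lowest at 8 w in B6 mice, and Cyp46a1 is split by replicate in DBA/2 mice from 0 w to 8 w.

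Of the enzymes of sterols and bile acids, Cyp7b1, an oxysterol hydroxylase, followed the liver members in B6 mice. Its level was -2.72 and -3.04 at 0 w and -3.83 and -3.87 at 8 w. In the other samples it lay between -7.95 and -5.64, and there it was well above background only in DBA/2 4 w replicate 1. It was at least 3.70-fold lower at B6 4 w (limma, adjusted p = 1.08e-05). Cyp7a1, the first enzyme of bile acid synthesis, was well above background in 3 samples, with its highest level, -2.97, in DBA/2 9 w replicate 1. The call of a rise at DBA/2 9 w, at least 2.01-fold (limma, adjusted p = 0.016), was lost without that sample. Cyp27a1, the mitochondrial sterol hydroxylase, was seen in 3 samples, between -6.81 at its lowest and -3.45 in DBA/2 0 w replicate 2, and no comparison of it passed.

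Cyp46a1, the cholesterol hydroxylase of neurons, was seen in all samples. The levels in DBA/2 mice differed between the replicates of a week. It was -0.04 and 1.09 at 0 w, 0.20 and 1.32 at 2 w, -0.18 and 0.93 at 4 w and -0.54 and 0.92 at 8 w, but -0.00 and -0.06 at 9 w. The first replicates of 0 w to 8 w shared a slide and the second another, and no comparison of Cyp46a1 passed the test.

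Among the enzymes of steroid hormones, Cyp17a1, which makes androgen precursors in gonads and adrenals, was seen in all samples. Its level was 0.69 and 0.80 at B6 0 w, 0.68 at 2 w, 0.54 and 0.77 at 4 w, -0.43 and -0.09 at 8 w and 0.28 at 9 w. It fell by 1.0 ± 0.17 at B6 8 w (limma, adjusted p = 0.00268), while in the unscaled values the change was 0.02. In DBA/2 mice it lay between -0.28 and 0.13 up to 8 w and was 0.48 and 1.00 at 9 w, a rise of 0.79 ± 0.17 (limma, adjusted p = 0.00759). Cyp11a1, which starts steroid synthesis and is also known from T cells, was well above background in 2 DBA/2 samples only. Its call at B6 8 w compares groups that both were not well above background, so that it gives no size, and was kept in 8 of 29 alternatives.

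Cyp27b1, which activates vitamin D in kidney and macrophages, was seen in 17 samples, with levels from -2.61 to -1.20. No comparison of this probe passed, and its second probe, seen in 12 samples, fell by 1.25 ± 0.36 at B6 8 w (limma, adjusted p = 0.0376). Cyp20a1, a member with no settled substrate, was seen in 3 samples, and no comparison of it passed.

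In DBA/2 mice few P450 probes were called as changed with time. Not well above background in either group were 23, 22, 22 and 24 of the 65 tested probes, by order of the later weeks. Among them were the 12 probes seen only at B6 0 w and 8 w. Such probes could hardly be called lower, so that the low counts do not show that P450 levels held steady. The share called higher was 3.08%, 7.69%, 7.69% and 10.8% in the same order. At 2 w 2 were higher and 0 lower, beside 7.91% higher and 7.82% lower of all probes. At 4 w 5 were higher and 0 lower, beside 7.58% and 7.22%. At an unadjusted p under 0.05 limma gave 5 higher and 7 lower at 2 w and 10 higher and 1 lower at 4 w. At 8 w 5 were higher and 1 lower, beside 10% and 14%, and at 9 w 7 were higher and 1 lower, beside 13.4% and 14.3%. With the replicate number, which coincides with the scan day, as a block 6 probes passed at 2 w. In the unscaled values the higher and lower counts were 2 and 6 at 2 w, 5 and 5 at 8 w and 2 and 7 at 9 w. The hepatocyte markers of DBA/2 mice were low at 0 w as well, with a summed level of 1.43 and 2.36.

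Cyp2b9, a female-biased liver member close to the inducible Cyp2b10, was higher at all 4 later weeks in DBA/2 mice. Its level was -2.45 and -2.41 at 0 w, -1.26 and -1.36 at 2 w, -1.78 and -1.97 at 4 w, -1.62 and -1.81 at 8 w and -1.67 and -1.69 at 9 w, so that all later samples exceeded both 0 w samples. The rise was 1.11 ± 0.12 at 2 w (limma, adjusted p = 0.000379). It was 0.55 ± 0.12, 0.71 ± 0.12 and 0.74 ± 0.12 in the weeks after (limma, adjusted p = 0.012, 0.00192 and 0.00132). In B6 mice its level was -3.61 and -3.77 at 0 w, -3.02 and -3.28 at 4 w and -2.53 and -2.63 at 8 w, a rise of 1.11 ± 0.12 at 8 w (limma, adjusted p = 0.00015). With normexp the B6 8 w change was -0.04. At B6 2 w Cyp2b9 was -5.14, not well above background, and at least 2.18-fold lower than at 0 w (limma, adjusted p = 0.000124). The second probe of Cyp2b10 was also higher in DBA/2 mice at all 4 weeks, by 0.85 to 1.25. Its main probe changed by 0.15 to 0.75 and passed at none of them (limma, adjusted p = 0.157 to 0.854). Of the hepatocyte markers, Fabp1 and Trf passed the test at B6 8 w, both of them lower.

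The strains differed most at 0 w. There 4 P450 probes were higher and 33 lower in DBA/2 than in B6 mice, beside 17.2% higher and 15.4% lower of all probes, with a median of -1.24 against 0.06. Of the hepatocyte markers 13 of 14 were lower too. In the unscaled values, where the median of all probes was 0.89, 14 were higher and 25 lower. Cyp2e1 was at least 17.95-fold lower (limma, adjusted p = 4.17e-06) and the difference in Cyp3a11 was -3.92 ± 0.59 (limma, adjusted p = 0.000764). The higher genes were Cyp4b1 (0.69 ± 0.14), Cyp2b9 (1.26 ± 0.12) and Cyp2b10 (0.93 ± 0.32, the second probe 0.83 ± 0.21) by limma, with adjusted p of 0.00383, 3.65e-05, 0.048 and 0.0125. The 0.93 of Cyp2b10 was kept in 11 of 28 alternatives. Cyp4f18 was lower by limma, with a difference of -0.66 ± 0.08 (adjusted p = 0.000191) and of 0.16 in the unscaled values.

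At 4 w liver markers were low in both strains, and 27 of the 65 tested P450 probes were not well above background in either group. Low counts are thus limited by dim probes and do not show that the strains were alike. At that week 5 P450 probes were higher and 2 lower in DBA/2 mice, beside 19.1% and 13% of all probes, and 21 and 0 in the unscaled values. The higher ones were Cyp2b9 (1.27 ± 0.12), the second probe of Cyp2b10, Cyp4a10 (1.00 ± 0.24), Cyp7b1 and, outside the rule for named genes, the second probe of Cyp39a1, while its main probe did not pass (0.42 ± 0.35; limma, adjusted p = 0.424). The lower ones were Cyp17a1 (-0.87 ± 0.17) and, outside that rule, Cyp19a1 (-1.63 ± 0.45). The difference in Cyp4f18 was 0.01 ± 0.08 (limma, adjusted p = 0.958). At 8 w 5 probes were higher and 27 lower, beside 10.4% and 15%, with a median of -0.68 against -0.04, and 13 of 14 hepatocyte markers were lower. Cyp4b1 was higher by 1.74 ± 0.14 (limma, adjusted p = 1.74e-05) and Cyp2b9 by 0.86 ± 0.12 (limma, adjusted p = 0.000535), while Cyp4f18 differed by -0.30 ± 0.08 (limma, adjusted p = 0.0203). The DBA/2 samples of 0 w to 8 w lay on 2 slides that held no B6 sample, so that slide and strain cannot be told apart in these comparisons.

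The change from 0 w to 4 w was tested for a difference between strains. Of the P450 probes, 25 had a more positive change in DBA/2 mice and 0 a less positive one by limma (33 and 0 at an unadjusted p under 0.05), beside 7.37% and 4.48% of all probes, and 12 of 14 hepatocyte markers did the same. Part of this count follows from the filter, which probes seen only in B6 0 w and 8 w passed through those samples alone. Most of the 25 are the liver members that fell in B6 mice from their 0 w level. Outside them, Cyp4f18 differed by 0.67 ± 0.11 (limma, adjusted p = 0.00432) and Cyp4f16 by 1.74 ± 0.42 (limma, adjusted p = 0.0268). For the change from 0 w to 8 w the counts were 9 and 0 by limma (15 and 3 at an unadjusted p under 0.05), beside 7.19% and 10.3%, and 0 and 13 in the unscaled values. Cyp4b1 differed by 1.05 ± 0.19 (limma, adjusted p = 0.00556) and Cyp3a41 by 1.65 ± 0.34 (limma, adjusted p = 0.00932), and Cyp4f18 by 0.36 ± 0.11, which did not pass (limma, adjusted p = 0.0546). Both strain comparisons of changes rest on the same 0 w samples.

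Genes that work beside the P450 enzymes were counted from lists. Por, the reductase, fell by 0.33 ± 0.08 at B6 4 w and rose by 0.45 ± 0.08 at B6 8 w (limma, adjusted p = 0.0191 and 0.00272). In DBA/2 mice it rose at every week, by 0.61 ± 0.08 at 4 w (limma, adjusted p = 0.000787). Of 7 redox partners 4 were lower at B6 4 w, beside 9.66% of all probes, and 4 were higher at DBA/2 4 w, beside 7.58%. Alas1, the first enzyme of haem synthesis, fell by 1.63 ± 0.09 at B6 4 w (limma, adjusted p = 4.51e-06) and rose by 0.83 ± 0.09 at DBA/2 8 w (limma, adjusted p = 0.000169). Of 12 tested enzymes of conjugation and other drug metabolism, 9 were lower at B6 4 w, 8 at B6 8 w and 9 in DBA/2 against B6 mice at 0 w, beside 9.66%, 10.2% and 15.4% of all probes. Ephx2, the hydrolase of the epoxides that P450 enzymes make from fatty acids, fell by 2.76 ± 0.11 at B6 4 w (limma, adjusted p = 4.85e-07).

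Of 9 tested regulators of P450 genes, Ahr, the receptor that turns on family 1, rose in both strains by 8 w, by 1.18 ± 0.19 in B6 and 1.27 ± 0.19 in DBA/2 mice (limma, adjusted p = 0.00187 and 0.00107). Its target Cyp1a1 was not well above background in any sample, and of its target Cyp1b1 the main probe was not seen and the second was seen in 2 DBA/2 samples. Of 5 tested enzymes of prostaglandins and leukotrienes, 3 were higher at B6 8 w and 4 at DBA/2 8 w, beside 11% and 10% of all probes. Of 10 tested genes of sterol synthesis around Cyp51, 7 were lower and 1 higher at B6 4 w, beside 9.66% and 6.02% of all probes. Of 6 liver transporters, 2 were lower in that comparison.

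Members that differ by sex in mouse liver were compared over samples. Of the female-biased members, 7 genes including Cyp3a41, Cyp3a16, Cyp3a44 and Cyp2b9, all were well above background in at least 1 B6 0 w sample, in mice labelled as male. Their summed linear level was 3.07 and 3.27 at B6 0 w, 0.94 and 0.99 at 8 w and 0.22 to 0.71 in all other samples. The summed level of the 3 male-biased members (Cyp2d9, Cyp4a12 and Cyp7b1) was 1.36 and 1.40 at B6 0 w, 0.80 and 0.89 at 8 w and 0.32 to 0.85 elsewhere. From B6 0 w to 8 w, the female-biased Cyp3a41, Cyp3a16 and Cyp3a44 changed by -2.25, -2.24 and -2.04. Cyp2b9, also female-biased, rose by 1.11 ± 0.12 (limma, adjusted p = 0.00015). Of the male-biased members, Cyp2d9 changed by -0.60 ± 0.17 and Cyp7b1 by -0.97 ± 0.26 (limma, adjusted p = 0.034 and 0.0264). Cyp4a12 changed by -0.98 ± 0.54, which did not pass (limma, adjusted p = 0.245). The second probe of Cyp2d9 changed by -1.12 ± 0.28 (limma, adjusted p = 0.0193). The difference between the lists was not tested. Members of both liver zones were present at B6 0 w, Cyp2e1, Cyp2c29 and Cyp1a2 of the central zone and Cyp2f2 of the portal zone. Their changes to 8 w were -0.78, -1.20, -1.02 and -0.98, none of which passed, with an SE of 0.88 for Cyp1a2. With 1 gene for the portal zone, a difference between zones was not tested.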

How the data were processed

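Leukocyte RNA of the 10 groups above was measured on 19 arrays. B6 0 w replicate 2 was hybridized to 2 arrays that were averaged, which left 18 samples. The authors labelled total RNA with Cy3, hybridized it to single-color Agilent whole mouse genome arrays and extracted the images with Feature Extraction 9.5.3.1, per the submitters' processing notes. The deposited signal of each spot is an intensity on the linear scale from which the software subtracted background and removed trends within the array, and it is not normalized between arrays. A second deposited table, with the spots of each probe averaged, served as an alternative. On each array, 33.9% to 51.4% of 43379 spots were well above background, and precision is set by how few arrays there are.

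Spots marked as outliers were left out, 1187 of them in DBA/2 9 w replicate 2 and 64 to 180 on each other array. Where this removed all spots of a probe on an array, the fit used the remaining samples, as for Cyp2c44, Cyp26b1 and the main probe of Cyp27b1 in DBA/2 9 w replicate 2. The 75th percentile of each array, over 11536 probes well above background on all arrays, was subtracted on the log2 scale. Tested were the 22939 probes that 2 or more of 18 samples had well above background, by limma 3.58.1 in R 4.3.3 (lmFit, eBayes), with 10 group means, 8 residual and 1.37 prior degrees of freedom, and Benjamini-Hochberg adjustment with a threshold of 0.05. The labels call the samples of a group biological replicates and the study's methods describe RNA of single mice, so that p-values rest on the spread between 2 mice a group. Later weeks were compared with 0 w, the strains at 0 w, 4 w and 8 w, and the changes at 4 w and 8 w between strains. Comparisons with 0 w in a strain share its 0 w samples. The procedure was tested on simulated data. Values were handled with Python 3.11.15, pandas 2.3.3, numpy 2.4.6 and matplotlib 3.10.9.

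The arrays came from 6 slides and were scanned on 2 days, with replicate 1 on one and replicate 2 on the other. B6 8 w replicate 1 was the only array of its slide. With the slide as a block, B6 8 w therefore rests on replicate 2 alone, and a loss of its calls there is also the loss of a replicate. Probe positions are those of the files (mm8). Of 106 P450 probes 94 were matched to a current gene by accession and 4 of them have a new symbol, but the names of the files are used. Named with values were Cyp2e1 and Cyp3a11, liver members and members known from blood cells listed from general knowledge, members well above background on all arrays, and the 3 largest rises and falls with groups that do not overlap in 5 of the comparisons. The members and lists were chosen with earlier results of these data known. Alternatives were normexp background correction with an offset of 50, quantile normalization, the 75th percentile over all probes, no filter on dim probes or one at 9 samples, a floor of 10, the deposited table without scaling, outlier spots kept, either array of B6 0 w replicate 2, a block for the slide or for the replicate number, each strain alone and each replicate left out.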

Additional observations from a re-analysis of the deposited data

Results flagged for a closer look

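The change from 0 w to 4 w differed between strains, by limma's test of the difference itself, in 12 named genes, always with the more positive change in DBA/2 mice. The differences (log2) were 6.38 in Cyp2f2, 6.36 in Cyp2a5, 6.34 in Cyp2e1, 5.42 in Cyp2c29, 5.19 in Cyp7b1, 4.80 in Cyp3a41, 4.53 in Cyp3a16 and 3.32 in Cyp3a11. For most of these the signal at B6 4 w and in DBA/2 mice was too dim to be well above background, so that the size of the difference is not fixed by the data, and 12 of 14 hepatocyte markers differed in the same direction. The smaller differences were 1.94 in Cyp4v3, 1.74 in Cyp4f16, 1.68 in Cyp2d9 and 0.67 in Cyp4f18. Leaving out 1 of 5 samples (B6 0 w replicate 1, B6 4 w replicate 2, either DBA/2 4 w sample or DBA/2 0 w replicate 2) ended the call of Cyp4f16.

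The change from 0 w to 8 w differed between strains in 7 named genes. The difference was 1.65 in Cyp3a41, 1.54 in Cyp4f16, 1.5 in Cyp11a1, 1.27 in Cyp4v3, 1.24 in Cyp2a5, 1.05 in Cyp4b1 and 0.83 in Cyp17a1. Cyp11a1 was not well above background at B6 0 w, B6 8 w or DBA/2 0 w, nor Cyp2a5 in DBA/2 mice, so that the sizes of these differences are not fixed by the data. Of these calls, 27 of 29 alternatives kept that of Cyp4b1, 26 of 29 that of Cyp3a41, 12 of 29 that of Cyp17a1 and 9 of 28 that of Cyp11a1. The 0 w samples of each strain are shared by both sets of differences.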

How the results depend on the processing

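The P450 counts depended on the background correction, the filter, the scaling and the slide. With normexp, 2, 2, 3 and 2 probes passed in the later weeks of B6 mice in order, 0, 0 and 1 at DBA/2 2 w, 4 w and 8 w, 17, 1 and 3 between strains at 0 w, 4 w and 8 w, and 0 and 0 in the changes between strains at 4 w and 8 w, where the shares of all probes fell as well. By limma at an unadjusted p under 0.05, the main values gave 12 probes at DBA/2 2 w and 11 at 4 w. With the filter at 9 samples, which leaves 30 P450 probes, 8, 11, 11 and 9 passed in the later weeks of B6 mice in order, 16 and 11 between strains at 0 w and 8 w and 9 in the change at 4 w. Counts at B6 8 w were 33 with a floor of 10, 13 without a filter and 9 with the slide as a block. Those of DBA/2 2 w were 5 with the slide as a block, 8 in the unscaled table, 6 with the replicate block, 9 with the slide as a random block and 4 with DBA/2 fitted alone. At DBA/2 4 w 2 passed without a filter and 9 with the random block. At DBA/2 8 w 10 passed with the slide as a block, 10 in the unscaled table and 15 with the random block. Between strains at 4 w 21 passed in the unscaled table. The change at 8 w gave 28 with the floor, 3 without a filter, 4 with the slide as a block and 17 with quantile normalization. The cause was not tested. The random block was chosen after seeing the data, as were the 75th percentile over all probes and the outlier spots kept.

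With each replicate left out in turn the counts were 22 to 31, 24 to 33, 9 to 25 and 21 to 29 in the later weeks of B6 mice, 2 to 4, 1 to 6, 6 to 10 and 5 to 10 in DBA/2 mice, 31 to 38, 7 to 11 and 28 to 33 between strains, and 22 to 27 and 4 to 11 in the changes.

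Directions turned in 13 cases. With normexp Cyp2b9 at B6 8 w was -0.041, and between strains Cyp2b10 was -0.35 at 0 w and Cyp7b1 and Cyp4a10 were -0.76 and -0.45 at 4 w. In the unscaled table Cyp17a1, Cyp7b1 and Cyp2d9 at B6 8 w were 0.016, 0.050 and 0.42, Cyp4f18 at DBA/2 9 w was -0.080, Cyp17a1 and Cyp4f18 between strains at 0 w were 0.029 and 0.16, and the changes at 8 w of Cyp17a1 and Cyp4b1 were -0.36 and -0.14. With the slide as a block Cyp11a1 at B6 8 w was 0.11. The slide as a block could not be fitted for DBA/2 9 w or between strains.

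Replicate numbers are shared between groups and coincide with the scan day. Over 28 pairs of groups the correlation of same-numbered deviations was -0.011 to 0.46 with a median of 0.080. It was 0.29 to 0.46 within B6 mice and 0.016 to 0.40 within DBA/2 mice, so that samples of a scan day deviated together in B6 mice, but the numbers were not taken to pair samples. With the replicate block the counts were 30, 36, 25 and 29 in B6 mice and 6, 5, 8 and 10 in DBA/2 mice.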

Other observations

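In B6 4 w replicate 1, 2 probes of the female-biased Cyp2b genes stood apart from replicate 2. The level of Cyp2b13 was -1.73 against -4.34, and that of the second probe of Cyp2b9 was -3.54 against -6.54, the 1 sample of 18 in which this probe was well above background. The main probe of Cyp2b9 was -3.02 against -3.28. These genes were chosen after their values were seen.

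The Y-linked genes Ddx3y and Eif2s3y were well above background in 18 of 18 samples and Xist in 0, in mice labelled as male. A further 8 probes of 7 genes carry other names in the files and a current P450 symbol by accession, and were not members by the rule used here.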
